A study of Mus musculus with 10 samples.

Results

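Genes for the synthesis and inactivation of prostaglandins and leukotrienes were examined in C2C12 cells, a mouse myoblast line that forms myotubes when serum is withdrawn, after knockdown of the ubiquitin ligase Huwe1 or overexpression of the deubiquitinase USP10. The set held 10 genes: Pla2g4a, Ptgs1, Ptgs2, Ptges, Ptges2, Ptges3, Ptgis, Alox5, Alox5ap and Hpgd. They are 10 of the 23417 genes in each of 3 Huwe1 tables and of the 23431 genes in the USP10 table, and all 10 were found in every table. They were picked as eicosanoid enzymes and chosen from their FPKM values in these same tables, so every value below is a description and none is a test. FPKM is a count of sequenced fragments corrected for the length of the transcript and the depth of the library, and can be compared between genes.

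The series covered 10 libraries of polyadenylated RNA. The day 0 cells were kept in growth medium (DMEM with 10% FBS) and the day 6 and day 8 cells in differentiation medium (DMEM with 2% horse serum). At day 0 and at day 6, 1 library labelled wildtype was set against 2 libraries of cells carrying shRNA against Huwe1, each with its own hairpin, delivered by lentivirus and selected with puromycin. The labels name no hairpin for these controls, so infection and selection cannot be told apart from the knockdown. In the third Huwe1 table, formed myotubes received Huwe1 hairpins by lentivirus on day 4 of differentiation and were harvested on day 8. By the labels these hairpins are not those of day 0 and day 6, whereas the study's methods give the same sequences for myoblasts and myotubes. The control of the myotubes is labelled as carrying a non-targeting RNA, whereas the table's header calls it wild type. The last table compared 1 day 6 library of a stable line, in which an EF1a promoter drives USP10 cDNA, with a day 6 control that could not be assigned to a labelled sample. All 4 tables are from C2C12 cells, and the design asks how these genes stand when Huwe1 is reduced before, during or after differentiation, or when USP10 is raised.

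Each table holds 1 FPKM value per condition, with both hairpins of a stage pooled in 1 column, so no difference between conditions has a replicate error and no p-value was computed. The columns number 8, and the tables were normalized separately. Depth was estimated for the columns made from 1 library and for the control of the USP10 table, whose number of libraries is not known. It came to 7850000 to 29900000 fragments, the lowest being the control of the USP10 table. On a transcript of 2000 bases, 3 fragments are then worth between 0.0502 and 0.191 FPKM. No such estimate was made for the pooled knockdown columns. The targeted gene, Huwe1, was at 38.3 FPKM in control cells and 15.2 FPKM after knockdown at day 0, at 35.1 and 21.9 FPKM at day 6, and at 55.4 and 33 FPKM at day 8. Usp10 was at 10.3 FPKM in control cells and 38.3 FPKM in the overexpressing line. In the day 6 knockdown, where USP10 was not introduced, Usp10 was also higher, at 35.4 against 13.2 FPKM. At day 0 Usp10 was at 68.5 FPKM in control cells and 64.2 FPKM after knockdown, both above the level in the overexpressing line.

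Eicosanoids are signalling lipids made from arachidonic acid, which a phospholipase frees from membranes. Cyclooxygenases turn it into an unstable prostaglandin that terminal synthases convert into prostaglandin E2, prostacyclin and others, whereas 5-lipoxygenase and its activating protein start the leukotriene branch. In muscle, prostaglandins are known to act on myoblast proliferation, survival and fusion, and leukotriene synthesis is best known from leukocytes.

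A ratio below is treated over control FPKM on the log2 scale, with 0.01 added to both values, which slightly understates the change of low genes. A gene was counted in a table if either of its columns reached 1 FPKM, and a difference of at least 2-fold was taken as the limit. In the day 0 knockdown, 9 of the 10 genes reached this level. Of these, 2 were at least 2-fold lower, beside 1.69% of all 10874 genes that passed, and 1 was at least 2-fold higher, beside 1.90%. In the day 6 knockdown 9 genes passed, with 1 at least 2-fold lower, beside 13.4% of 11695 genes, and 5 at least 2-fold higher, beside 17.6%. In the day 8 knockdown 8 genes passed, with 2 at least 2-fold lower, beside 10.0% of 11755 genes, and 0 at least 2-fold higher, beside 7.89%. With USP10 overexpressed 9 genes passed, with 1 at least 2-fold lower, beside 10.0% of 11482 genes, and 4 at least 2-fold higher, beside 9.70%. Since the genes were chosen from these contrasts, nothing is read from these counts. The median log2 ratio of the genes that passed was -0.12, 1.85, 0.00 and 0.44 in that order, against 0.00, -0.01, 0.00 and 0.05 for all genes.

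**Figure D1:**
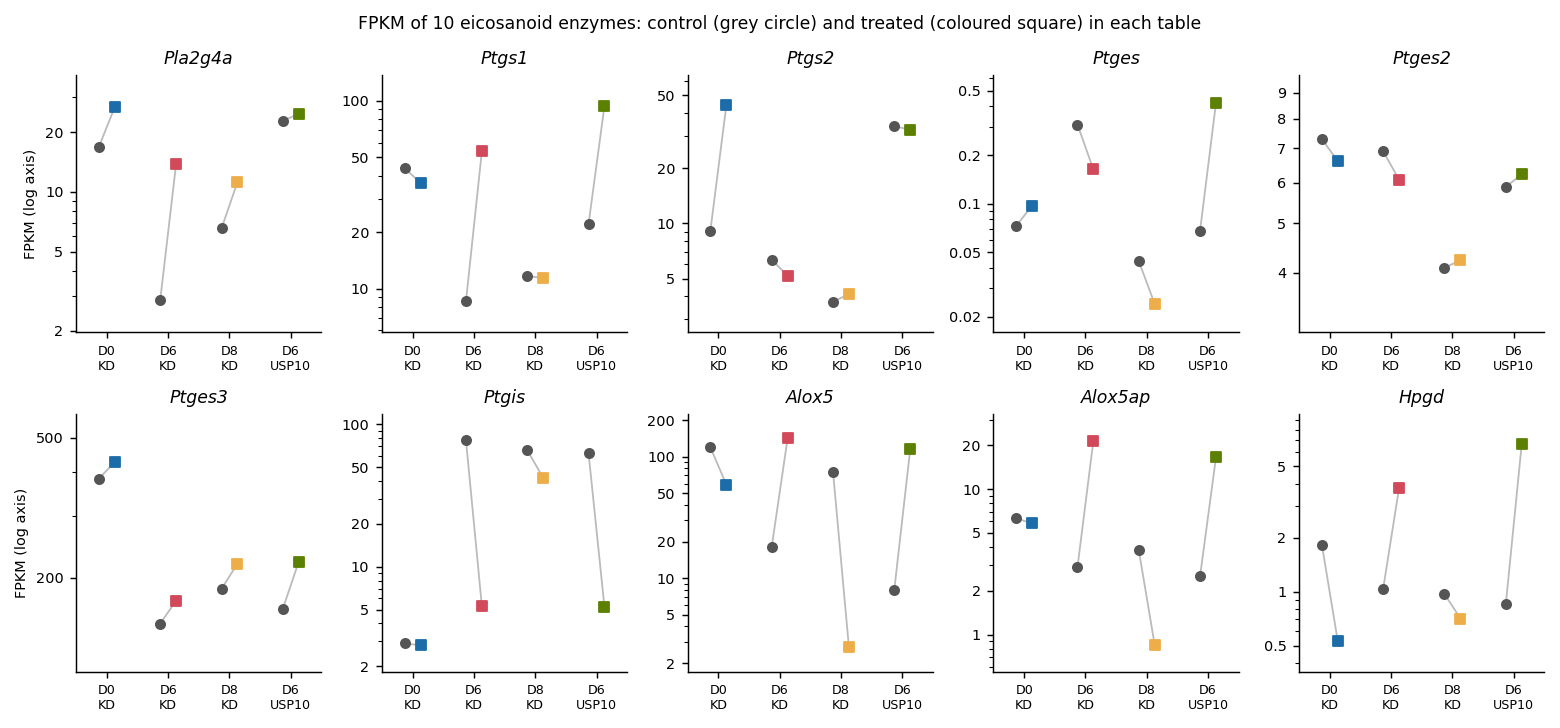
FPKM (log axis, with its own range in each panel) of the 10 genes in the 4 tables: day 0 (D0), day 6 (D6) and day 8 (D8) Huwe1 knockdown (KD), and day 6 USP10 overexpression. Grey circles are controls and coloured squares are treated columns, joined within a table, with 1 value per condition and no error bars. Ptges stays under 1 FPKM throughout, and Alox5 runs from 2.69 to 142 FPKM.

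The first enzyme, Pla2g4a, encodes the cytosolic phospholipase A2 that frees arachidonic acid (mouse build GRCm38, chr1:149829622-149961284). It was at 16.9 FPKM in day 0 control cells and 26.8 FPKM after knockdown, a log2 ratio of 0.67. At day 6 it was at 2.86 FPKM in control cells and 13.9 FPKM after knockdown, 4.85-fold higher. At day 8 the values were 6.56 and 11.2 FPKM, a log2 ratio of 0.77. All 3 knockdown columns thus lay above their controls, but by 2-fold or more at day 6 only. The USP10 table does not share that low day 6 control level. There Pla2g4a was at 22.8 FPKM in control cells and 24.7 FPKM in the overexpressing line. The controls of the same labelled day therefore differed by 7.97-fold, more than the day 6 knockdown differed from its own control. Set against the control of the USP10 table, with each column centred on its median gene, the day 6 log2 ratio turned from 2.28 to -0.83.

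The cyclooxygenases Ptgs1 (COX-1, usually described as the constitutive form) and Ptgs2 (COX-2, usually described as inducible) differed in which condition set them apart. Ptgs1 lies at chr2:36230426-36252269 and Ptgs2 at chr1:150100124-150108012. Ptgs1 was at 43.9 FPKM in day 0 control cells and 36.5 FPKM after knockdown. At day 6 it was at 8.59 FPKM in control cells and 54.1 FPKM after knockdown, 6.29-fold higher, with a log2 ratio of 2.65. At day 8 it was at 11.7 and 11.4 FPKM. In the control cultures of the Huwe1 tables, then, the day 6 level was 5.11-fold below that of day 0. The day 6 knockdown column was above the day 0 control. Against the control of the USP10 table, with columns centred, the day 6 log2 ratio of Ptgs1 went from 2.65 to 1.18. With USP10 overexpressed Ptgs1 was at 94.2 FPKM, its highest level in any column, against 22.1 FPKM in that table's control, 4.27-fold higher.

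Ptgs2 showed its one difference of at least 2-fold in myoblasts. It was at 9.14 FPKM in day 0 control cells and 44.1 FPKM after knockdown, 4.82-fold higher, with a log2 ratio of 2.27 that ranked it 60 from the highest among 10874 genes. It was at 6.33 and 5.18 FPKM at day 6, at 3.74 and 4.11 FPKM at day 8, and at 34 and 32.3 FPKM in the USP10 table. The last pair is high on both sides, so that the controls labelled day 6 differed by 5.36-fold. Against the control of the other day 6 table, with columns centred, Ptgs2 had a log2 ratio of -2.82 in the day 6 knockdown and 2.36 in the USP10 line, where each was near 0 against its own control.

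The 2 genes changed places as the larger share of cyclooxygenase mRNA. At day 0 Ptgs2 made up 17.2% of the summed Ptgs1 and Ptgs2 FPKM in control cells and 54.7% after knockdown. At day 6 its share was 42.4% in the control and 8.73% in the knockdown, and at day 8 it was 24.2% and 26.5%. In the USP10 table the share was 60.6% in the control and 25.5% in the overexpressing line. Summed over both genes, the level was 53.1 FPKM in day 0 control cells and 80.6 FPKM after knockdown, 14.9 and 59.3 FPKM at day 6, 15.5 FPKM on both sides at day 8, and 56 and 127 FPKM in the USP10 table.

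**Figure D2:**
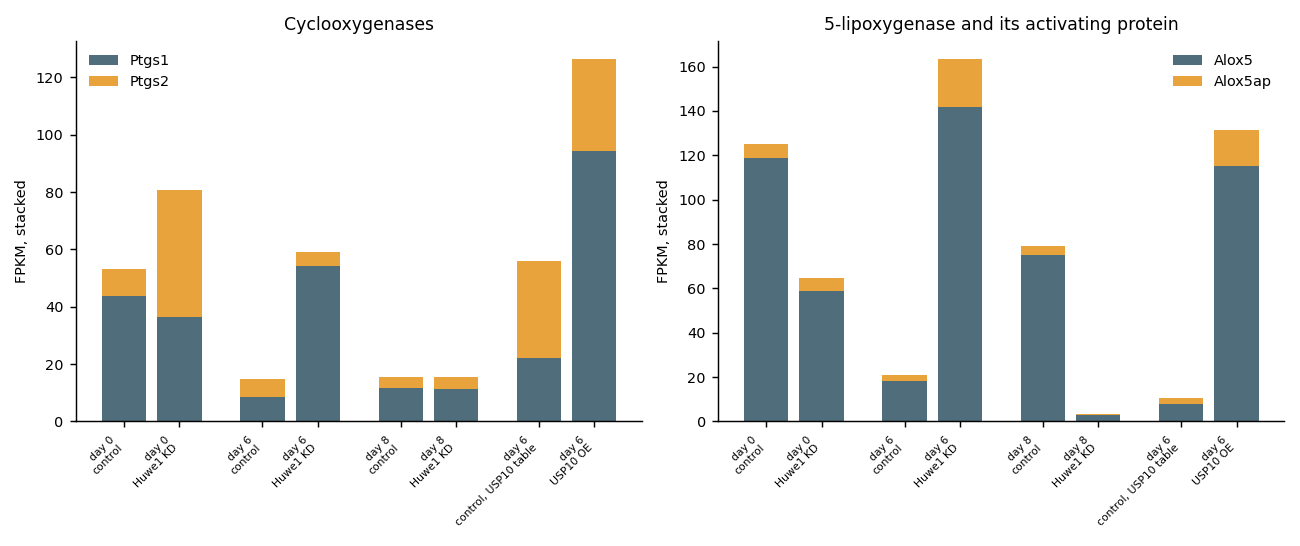
Stacked FPKM (linear axis from 0) of Ptgs1 and Ptgs2, left, and of Alox5 and Alox5ap, right, in the 8 columns, with 1 value per column and no error bars. The cyclooxygenase bar is mostly Ptgs2 in the day 0 knockdown and in the control of the USP10 table, and the leukotriene bar nearly vanishes in the day 8 knockdown, at 3.54 FPKM.

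The promoters of the cyclooxygenases are shown because the levels of the 2 genes went different ways in the knockdown. RefSeq gives a window for 8 of the 10 genes, of 250 bases before the start and 50 bases from it on (assembly GRCm38.p6, bases counted from 1 at the start). Windows were searched on both strands for the TATA box TATAAA, the GC box GGGCGG, the E-boxes CAGCTG and CACGTG, the CRE core TGACGT and the NF-kB consensus motif, and matches are in capitals. The Ptgs1 window is chr2:36230176-36230475 on the plus strand and the Ptgs2 window is chr1:150099781-150100080 on the plus strand, whose start lies upstream of the start in the tables.
Ptgs1: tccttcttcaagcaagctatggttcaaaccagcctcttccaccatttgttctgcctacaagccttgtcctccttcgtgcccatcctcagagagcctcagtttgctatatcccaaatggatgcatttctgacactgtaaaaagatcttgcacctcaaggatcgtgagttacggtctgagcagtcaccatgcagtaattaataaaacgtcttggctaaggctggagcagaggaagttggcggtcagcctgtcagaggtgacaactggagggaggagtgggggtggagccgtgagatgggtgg
Ptgs2: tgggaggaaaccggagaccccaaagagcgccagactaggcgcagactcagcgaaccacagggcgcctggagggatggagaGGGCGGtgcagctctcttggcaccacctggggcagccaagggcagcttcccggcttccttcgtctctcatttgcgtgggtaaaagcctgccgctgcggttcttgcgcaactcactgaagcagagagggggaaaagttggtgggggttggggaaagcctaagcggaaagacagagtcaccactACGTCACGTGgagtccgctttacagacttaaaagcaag
The Ptgs1 window held no match. The Ptgs2 window held GGGCGG at base -170, as do 35.7% of all 32851 RefSeq windows, and TGACGT on the other strand at base 13, as do 7.51%. The latter overlaps CACGTG at base 17, which 7.15% of windows hold. The NF-kB motif, found in 0.155% of windows, was in none of the windows of the 8 genes. A match is a run of letters and says nothing of binding.

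The terminal synthases of prostaglandin E2 stood apart from the other enzymes in how little they varied, except where the level was too low to read. Ptges encodes the inducible microsomal synthase that is commonly paired with COX-2 (chr2:30889471-30903297). It was at 0.0729 and 0.0972 FPKM in day 0 control and knockdown cells, 0.309 and 0.163 FPKM at day 6, 0.0442 and 0.024 FPKM at day 8, and 0.0679 and 0.42 FPKM in the USP10 table. It passed the minimum of 1 FPKM in no column, and was therefore the one gene counted in none of the comparisons. In the day 8 control and in the control of the USP10 table its value lies below what 3 fragments are worth there on 2000 bases, 0.0834 and 0.191 FPKM. Hence Ptgs2 at 44.1 FPKM in the day 0 knockdown stood beside Ptges at 0.0972 FPKM in the same column.

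Ptges2, a membrane-associated synthase (chr2:32395890-32402740), was at 7.3 FPKM in day 0 control cells and 6.61 FPKM after knockdown. Its other values were 6.91 and 6.08 FPKM at day 6, 4.09 and 4.23 FPKM at day 8, and 5.89 and 6.23 FPKM in the USP10 table. The highest of the 8 columns was 1.79-fold above the lowest, the narrowest range among the 10 genes. Ptges3 encodes the cytosolic synthase, also known as p23, a cochaperone of Hsp90 (chr10:128058982-128077254). It had the highest level of the 10 genes in each column, at 383 and 427 FPKM at day 0, 148 and 172 FPKM at day 6, 186 and 219 FPKM at day 8, and 163 and 222 FPKM in the USP10 table. Each treated column lay above its control, by log2 ratios of 0.16 to 0.44, all under 2-fold, and the day 6 ratio was -0.03 against the control of the USP10 table with columns centred. Its level is uncertain, since a processed pseudogene, Ptges3-ps on chromosome 6, could share its reads. The Ptges3 window held GGGCGG at 4 places, the Ptges window at 2, and the Ptges2 window held CACGTG at base -77.

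Prostacyclin synthase, Ptgis (chr2:167203196-167240537), was the one gene of the set that was at least 2-fold lower in both day 6 comparisons. It was at 2.89 FPKM in day 0 control cells and 2.81 FPKM after knockdown. At day 6 it was at 77.3 FPKM in control cells and 5.26 FPKM after knockdown, a log2 ratio of -3.87, or 14.7-fold lower. In the USP10 table it was at 62.9 FPKM in control cells and 5.19 FPKM in the overexpressing line, a log2 ratio of -3.60, or 12.1-fold lower. The day 6 controls differed by 1.23-fold, far less than either treated column differed from them. In the control cultures Ptgis was 26.6-fold higher at day 6 than at day 0, so that both day 6 treated columns stood between the controls of these days and nearer to that of day 0. In myotubes infected after differentiation had begun, the values at day 8 were 65.9 FPKM in control cells and 42.1 FPKM after knockdown, a log2 ratio of -0.65.

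Muscle differentiation markers were lower at day 6 as Ptgis was, and also at day 8. Of 19 muscle differentiation markers with at least 1 FPKM, 18 were at least 2-fold lower in the day 6 knockdown (median log2 ratio -3.13), 19 in the day 8 knockdown (-2.45) and 16 with USP10 overexpressed (-2.78). At day 0, 8 passed, 1 was at least 2-fold lower and 1 higher (-0.29). The summed level of the list was 40472 FPKM in day 6 control cells and 7506 FPKM after knockdown, 29083 and 5993 FPKM at day 8, and 17697 and 6711 FPKM in the USP10 table. Among its genes, the fast myosin light chains Myl1 and Mylpf and the troponin Tnnt3 were at 3048, 4641 and 2951 FPKM in the day 8 control. Whether these markers have a part in the level of Ptgis or of any other enzyme was not tested. In bulk RNA, fewer cells of a type and less RNA per cell cannot be told apart.

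The leukotriene genes were past 2-fold in both directions, and Alox5 had the widest range of the set. Alox5 encodes arachidonate 5-lipoxygenase (chr6:116410071-116461178) and Alox5ap its activating protein, FLAP (chr5:149265058-149288047). Alox5 was at 119 FPKM in day 0 control cells and 58.9 FPKM after knockdown, a log2 ratio of -1.02, just past 2-fold, and just short of it once columns were centred on their median gene. At day 6 it was at 18.1 FPKM in control cells and 142 FPKM after knockdown, 7.87-fold higher. In the USP10 table it was at 8.02 FPKM in control cells and 115 FPKM in the overexpressing line, 14.3-fold higher, ranked 171 from the highest among 11482 genes. At day 8 the direction was the opposite. Alox5 was at 75.2 FPKM in control cells and 2.69 FPKM after knockdown, a log2 ratio of -4.80, or 27.8-fold lower, ranked 47 from the lowest among 11755 genes.

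The order of Alox5 over the 8 columns, from highest to lowest, was the day 6 knockdown, the day 0 control, the USP10 line, the day 8 control, the day 0 knockdown, the day 6 control, the control of the USP10 table and the day 8 knockdown. The 2 day 6 controls differed by 2.25-fold, and no other pair of columns shares a day and a condition. Whether they are 2 cultures of 1 stage is not known, since 1 of them could not be assigned to a labelled sample. Steps between neighbours among the 5 highest columns, of at most 1.53-fold, were smaller than 2.25-fold. The steps from the day 0 knockdown to the day 6 control, 3.26-fold, and to the day 8 knockdown at the bottom, 2.98-fold, were larger. The 2 control stages with a high level of Alox5, day 0 and day 8, are those in which the knockdown was lower. The controls with a low level are those in which the treated column was higher. Each ratio is taken over its own control, so a high control by itself favours a lower ratio, and nothing is read from this order.

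Alox5ap followed the same directions at lower levels. It was at 2.9 FPKM in day 6 control cells and 21.5 FPKM after knockdown, 7.38-fold higher, and at 2.52 and 16.5 FPKM in the USP10 table, 6.53-fold higher. At day 8 it was at 3.82 FPKM in control cells and 0.853 FPKM after knockdown, a log2 ratio of -2.15, or 4.44-fold lower. At day 0 the values were 6.31 and 5.81 FPKM, a log2 ratio of -0.12. Its day 6 controls differed by 1.15-fold. Annotated genes overlap Alox5ap (Gm19719), Ptgis (1110018N20Rik and Gm14291) and Ptgs1 (Gm43621) on the opposite strand. Whether counting used strand is not stated, so their reads and those of the enzymes cannot be told apart. Gm45540 overlaps Hpgd, and the processed pseudogene Gm13400 overlaps Ptges, on the same strand, where counting by strand would not separate them. On the FPKM scale Alox5 exceeded Alox5ap in each column, by 3.16-fold in the day 8 knockdown up to 19.7-fold in the day 8 control.

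The Alox5 promoter is shown since its gene had the widest range of the set, 52.8-fold between the highest and lowest columns. The RefSeq window is chr6:116461129-116461428 on the minus strand, printed in the direction of the gene.
Alox5: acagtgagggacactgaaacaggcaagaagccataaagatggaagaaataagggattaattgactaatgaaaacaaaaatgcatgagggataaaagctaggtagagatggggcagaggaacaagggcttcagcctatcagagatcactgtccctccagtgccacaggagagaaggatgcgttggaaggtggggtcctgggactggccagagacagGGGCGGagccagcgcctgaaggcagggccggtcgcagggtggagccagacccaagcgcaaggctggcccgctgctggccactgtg
It held 1 match, GGGCGG at base -35, and neither TATAAA nor CACGTG.

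As leukotriene synthesis is best known from leukocytes, leukocyte markers were read beside these genes. Of 12 leukocyte and macrophage markers in the tables, 9 reached 1 FPKM in no column, among them the defining Ptprc (CD45), Itgam, Csf1r, Emr1 and Tyrobp, and 2 were listed at 0 throughout. Cd68, Cd14 and Cd53 reached 1 FPKM. The summed level of the list lay between 2.13 and 14.4 FPKM over the 8 columns. Which cells the Alox5 mRNA came from was not tested. In the day 6 knockdown column the sum was 8.64 FPKM, and 3 markers passed (median log2 ratio 2.03). Of these, 2 were at least 2-fold higher, Cd14 and Cd53, which passed through the knockdown column alone. The USP10 line had a sum of 11.3 FPKM against 14.4 FPKM in its control, with 2 of 3 markers lower and 1 higher (-1.05). At day 0, 2 passed and 0 were past 2-fold (0.68), and at day 8 Cd68 and Cd14 passed (1.21), both through the knockdown column, so that their direction follows from the minimum level.

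Hpgd encodes the dehydrogenase that inactivates prostaglandins (chr8:56294552-56321046), and was low throughout. It was at 1.82 FPKM in day 0 control cells and 0.528 FPKM after knockdown, a log2 ratio of -1.77. At day 6 it was at 1.04 FPKM in control cells and 3.8 FPKM after knockdown, 3.61-fold higher. In the USP10 table it was at 0.849 and 6.64 FPKM, 7.74-fold higher, and its day 6 controls differed by 1.23-fold. At day 8 it was under 1 FPKM on both sides, at 0.97 and 0.708 FPKM. Hpgd was thus lower in myoblasts and higher in both day 6 comparisons, as was Alox5, but at levels where a pseudocount of 1 FPKM brings the day 0 log2 ratio to -0.88.
The Hpgd promoter is shown as the one window of the set with TATAAA on the gene's strand (chr8:56294302-56294601, plus strand).
Hpgd: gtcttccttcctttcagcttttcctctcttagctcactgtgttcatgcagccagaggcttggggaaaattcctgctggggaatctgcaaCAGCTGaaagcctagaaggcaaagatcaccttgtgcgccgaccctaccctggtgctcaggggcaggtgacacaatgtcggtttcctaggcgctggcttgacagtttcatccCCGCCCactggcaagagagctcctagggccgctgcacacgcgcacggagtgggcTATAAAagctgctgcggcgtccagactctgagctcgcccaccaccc
TATAAA stood at base 5, and 13.6% of all windows hold it. GGGCGG stood on the other strand at base -50, and CAGCTG, which 16.3% of windows hold, at base -161.

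**Figure D3:**
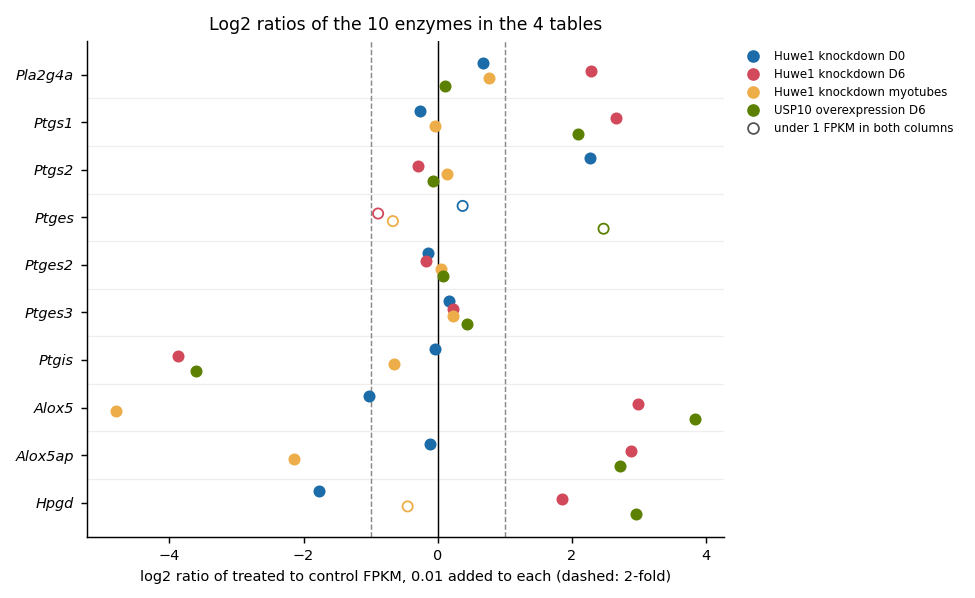
Log2 ratio of treated to control FPKM, 0.01 added to each, of the 10 genes in the 4 comparisons. Filled points reached 1 FPKM in either column, open points did not, dashed lines mark 2-fold, and each point is 1 ratio without error. Alox5 lies at -4.80 in the day 8 knockdown and at 3.84 in the USP10 line, and Ptgis at -3.87 and -3.60 in the day 6 comparisons.

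The day 6 differences were set beside the difference between the 2 day 6 control columns, which the headers give the same name but whose values and depths differ. Their summed muscle differentiation markers differed too, at 40472 FPKM in the Huwe1 control and 17697 FPKM in that of the USP10 table. Whether the 2 columns are cultures at the same state of differentiation is thus not known. Over 10358 genes with at least 1 FPKM in both, 13.9% differed by at least 2-fold after centring. Among the set, Pla2g4a, Ptgs2, Ptges, Ptgs1 and Alox5 differed by 7.97-, 5.36-, 4.1-, 2.57- and 2.25-fold between these controls, while Ptges2, Ptges3, Ptgis, Alox5ap and Hpgd differed by 1.1- to 1.23-fold. For Ptgis, Alox5, Alox5ap, Hpgd and Ptgs1 the treated column differed from its control by more than the controls differed, in the knockdown and in the USP10 line. Ptges3 did so too, at under 2-fold. For Pla2g4a, Ptgs2 and Ptges2 it differed by less in both, and Ptges was too low to count.

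**Figure D4:**
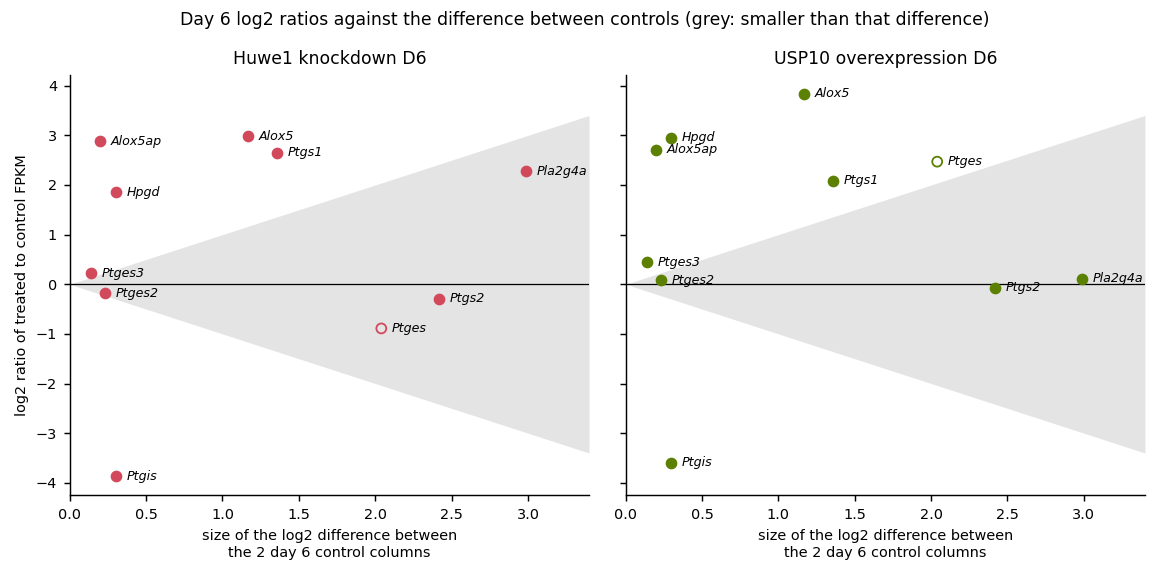
Log2 ratio of treated to control FPKM at day 6 (vertical axis) against the size of the log2 difference between the 2 day 6 control columns (horizontal axis), for Huwe1 knockdown (left) and USP10 overexpression (right). Each point is a gene, open points had under 1 FPKM in both columns of that table, and the grey area marks ratios smaller than the difference between controls. Pla2g4a and Ptgs2 lie inside it in both panels, and Ptgis lies furthest below it.

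The other genes of the pathway were taken from a list of 56, of which 55 were in the tables. At day 0, 19 of them had at least 1 FPKM, 3 were at least 2-fold lower and 1 higher, with a median log2 ratio of 0.01. At day 6, 27 passed, 7 were lower and 11 higher (-0.19). At day 8, 22 passed, 6 were lower and 5 higher (0.04), and with USP10 overexpressed 24 passed, 8 were lower and 1 higher (-0.47). The shares of all genes past 2-fold in each comparison are those given above, and genes that passed through 1 column only had to be on that side, so these counts are a description. Against the other day 6 control, the USP10 line had 7 lower and 7 higher, and the day 6 knockdown had 9 lower and 5 higher.

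By role, among the lipoxygenase and leukotriene enzymes other than Alox5 and Alox5ap, 4 of 7 were at least 2-fold higher and 1 lower in the day 6 knockdown. Of those 4, Ggt5 (0.0232 and 1.22 FPKM) and Dpep2 (0.0974 and 1.33 FPKM), named after their values were seen, passed the minimum level only through the knockdown column. Lta4h, which makes leukotriene B4, was at 33 FPKM in day 6 control cells and 102 FPKM after knockdown. Mgst3, a microsomal glutathione transferase, was at 5.01 and 22.9 FPKM at day 6 and at 8.7 and 3.03 FPKM at day 8. Mgst3 was thus past 2-fold on the same side as Alox5 at these stages. It was within 2-fold elsewhere, with log2 ratios of 0.19 at day 0 and 0.52 in the USP10 line. At day 8, 3 of 5 of these enzymes were lower, with Dpep1, a dipeptidase that cleaves leukotriene D4, at 6.46 and 1.37 FPKM. Cotl1, a protein that binds 5-lipoxygenase, was at 34.8 and 16.7 FPKM at day 0 and at 13.8 and 3.9 FPKM at day 8. It was on the lower side in both, as was Alox5. Where Alox5 was higher, Cotl1 was within 2-fold, with log2 ratios of 0.19 in the day 6 knockdown and 0.2 in the USP10 line. At day 0, 1 of 4 of these enzymes was lower, and with USP10 overexpressed 2 of 6.

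Among prostanoid enzymes outside the set, Akr1b3, an aldose reductase that can make prostaglandin F2alpha, was at 16.5 FPKM in day 0 control cells and 34.2 FPKM after knockdown. It was at 117 and 41.1 FPKM at day 6, at 117 and 39.6 FPKM at day 8, and at 71.5 and 23 FPKM in the USP10 table. It was thus lower in all 3 comparisons of cultures kept in differentiation medium. Ptgds, a prostaglandin D synthase, was at 9.32 and 1.23 FPKM in the day 6 knockdown table. In all, 3 of 7 of these enzymes were lower and 2 higher at day 6, 3 of 6 lower at day 8, 3 of 7 lower and 1 higher with USP10 overexpressed, and 1 of 5 each way at day 0.

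Of the other phospholipases, 2 of 7 were lower and 3 higher in the day 6 knockdown, 2 of 6 higher at day 8, 1 of 6 lower with USP10 overexpressed and 1 of 5 lower at day 0. Pla2g16 was at 42.4 and 16.5 FPKM in the day 6 knockdown table and at 24.1 and 11.4 FPKM in the USP10 table. Pla2g15, a lysosomal enzyme, was at 2.37 and 7.08 FPKM at day 6 and at 3.54 and 7.48 FPKM at day 8. Pla2g2e, a secreted form, was at 1.46 and 5.15 FPKM in the day 6 knockdown table. These stood on both sides, as the set did.

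Receptors were few, with 4 of 12 reaching 1 FPKM in any column. Neither leukotriene B4 receptor (Ltb4r1, Ltb4r2) nor cysteinyl leukotriene receptor (Cysltr1, Cysltr2) reached it. Ptgfr, the prostaglandin F receptor, was at 3.94 and 23.6 FPKM in the day 8 knockdown table and at 8 and 1.41 FPKM in the USP10 table. Ptger4, a prostaglandin E receptor, was at 1.64 and 7.66 FPKM at day 8, and Ptger1 was at 14.8 and 6.11 FPKM in the day 6 knockdown table and at 14 and 3.74 FPKM in the USP10 table. By count, 1 of 4 receptors was lower and 2 higher in the day 6 knockdown, 2 of 3 higher at day 8, 2 of 3 lower with USP10 overexpressed, and 0 of 3 past 2-fold at day 0. Of the transporters, Abcc4, which exports prostaglandins, was at 1.37 and 6.21 FPKM at day 8, the one transporter past 2-fold in any comparison.

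**Figure D5:**
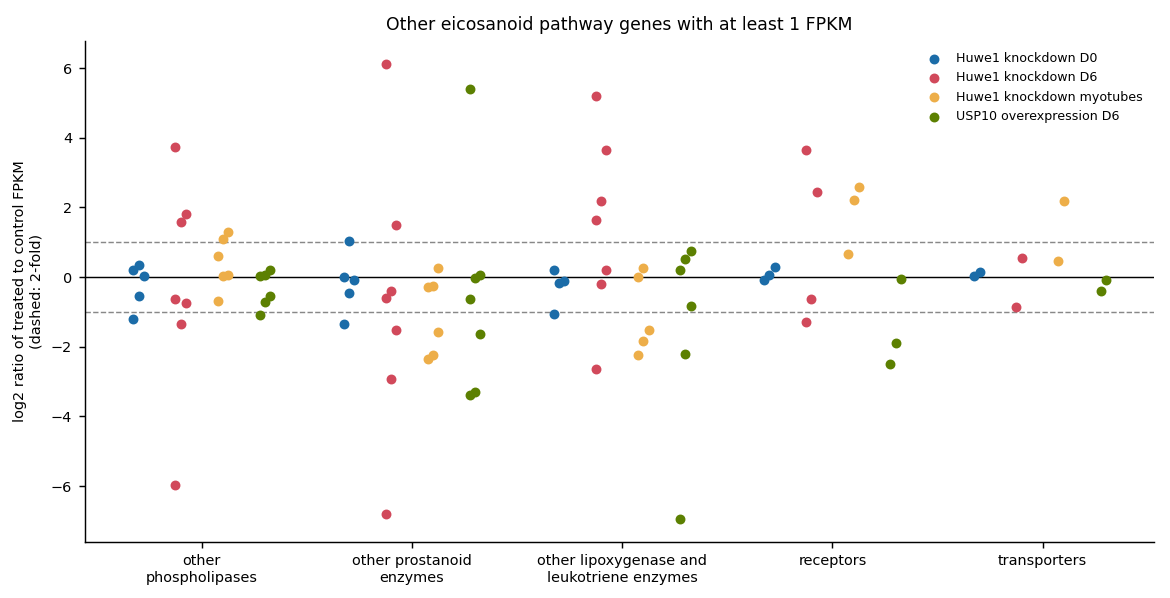
Log2 ratio of treated to control FPKM (vertical axis) of the other pathway genes that reached 1 FPKM in either column, grouped by role and coloured by comparison. Each point is 1 gene in 1 comparison with no error, and dashed lines mark 2-fold. Points beyond 3 in either direction belong to genes under 5 FPKM on both sides, and 4 points of the day 0 knockdown lie past 2-fold.

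Genes known to be induced together with Ptgs2 were counted from lists of 32 inflammatory and NF-kB target genes and 22 immediate early genes. Of the inflammatory genes, 14 passed at day 0, with 0 at least 2-fold lower and 5 higher (median log2 ratio 0.37). At day 6 of the knockdown 16 passed, with 1 lower and 10 higher (2.37), at day 8 13 passed, with 2 lower and 5 higher (0.07), and with USP10 overexpressed 15 passed, with 1 lower and 6 higher (0.39). Csf1, a macrophage growth factor, was at 47.9 and 103 FPKM at day 0 and at 8.24 and 37.7 FPKM at day 6. It was at 20.4 and 55.6 FPKM at day 8, and at 113 and 78.1 FPKM in the USP10 table. Vcam1 was at 31 and 25 FPKM at day 0 and at 34.2 and 23.2 FPKM at day 6. It was at 47.8 and 130 FPKM at day 8, and at 58.7 and 31.5 FPKM in the USP10 table. At day 6 of the knockdown, Ptgs2 was at 6.33 and 5.18 FPKM. Several of the inflammatory genes that were higher there passed the minimum level only through the knockdown column. Their direction follows from that level, which raises the count and the median, so nothing is read from them. The shares of all genes past 2-fold are those given above. Of the immediate early genes, 20 passed at day 0, with 1 lower and 1 higher (0.12), 20 at day 6, with 6 lower and 7 higher (-0.34), 20 at day 8, with 3 lower and 1 higher (-0.14), and 19 in the USP10 table, with 4 lower and 6 higher (0.59). Ctgf, the one that was higher at day 0, was at 48.1 and 157 FPKM.

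The label of the cells was read from markers of 4 other kinds. All 6 myoblast markers reached 1 FPKM, with a summed level between 269 FPKM in the day 0 knockdown and 2381 FPKM in the day 6 control. Des, which is also in the muscle differentiation list, made up 173 FPKM and 1769 FPKM of these sums. It was also the lower marker at day 8, at 1510 and 604 FPKM. In the day 0 knockdown 1 of 5 that passed was at least 2-fold lower (median -0.91), at day 6 2 of 6 were lower and 1 higher (-0.39), at day 8 1 of 6 was lower (0.02), and with USP10 overexpressed 1 was lower and 1 higher (0.00). Endothelial cells also make prostacyclin, and of 9 endothelial markers 7 reached 1 FPKM in no column, Pecam1, Kdr and Vwf among them. Cdh5 and Tek reached it, and the summed level lay between 0.909 and 14.2 FPKM. Which cells the Ptgis mRNA came from was not tested. Cdh5 was at 0.0241 FPKM in day 6 control cells and 6.83 FPKM after knockdown, and at 0.278 and 6.81 FPKM in the USP10 table. Cdh5 and Tek passed in the day 6 knockdown (median 5.79) and Cdh5 alone with USP10 overexpressed (4.56), each through its treated column, so that their direction follows from the minimum level. At day 0, 1 passed and 0 were past 2-fold (-0.28), and at day 8, 0 passed.

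Fibroblast and matrix markers moved in the same comparisons as Ptgs1, Alox5, Alox5ap and Hpgd at day 6. Of 11 such markers, 10 passed in the day 6 knockdown and 10 were at least 2-fold higher (median 4.24), and 5 of 10 were higher with USP10 overexpressed (0.91). Their summed level was 199 FPKM in day 6 control cells and 5315 FPKM after knockdown, and 883 and 4662 FPKM in the USP10 table, of which, in the treated columns, the matrix proteoglycan Dcn made up 2987 FPKM and 3037 FPKM. At day 0, 1 of 9 was lower and 1 higher (-0.29), and at day 8, 1 of 9 was lower and 2 higher (-0.15). Thy1 reached 1 FPKM in no column. The part of these cells or genes in the enzyme levels was not tested.

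The genes whose pattern was most like that of an enzyme were found by Pearson correlation of log2 FPKM over the 8 columns, among 8371 genes that reached 10 FPKM in some column. The columns are not independent, since each control shares its table's scaling and stage with its treated column, and the values are descriptions with no p. For Ptgis the 3 nearest were Lonp2 (r = 0.994), Tecr (0.994) and Runx1 (0.993), all lowest in the day 0 knockdown and highest in the day 6 control. For Ptgs1 they were Zadh2 (0.986), Maff (0.984) and Hmga2-ps1 (0.979), all highest in the USP10 line. For Alox5ap they were Igfbp6 (0.986), Gng11 (0.976) and Fam69a (0.973), and for Alox5 Pkp1 (0.957), Insig1 (0.954) and Tns1 (0.953), and these 6 genes were lowest in the day 8 knockdown. For Pla2g4a they were Csf1 (0.965), Elovl1 (0.96) and Gnaq (0.96), all lowest in the day 6 control. Ptgs2 had the loosest matches, Ppp2r5a (0.931), Phax (0.923) and Taf15 (0.921). A match can vary far less than its enzyme. Phax lay between 32.8 and 48.3 FPKM and Gnaq between 7.56 and 12.9 FPKM. A 4-fold range was asked of the enzymes alone.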

How the data were processed

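Total RNA of C2C12 cells was made into directional libraries from oligo(dT)-selected mRNA. The submitters' processing notes list Bowtie2, Cuffdiff and build mm10, and the study's methods name Tophat. Versions are not given in the sources used here, nor whether counting used strand. The deposited FPKM values were made by the authors with Cuffdiff, 1 per gene and condition, with the 2 knockdown libraries of a stage pooled. The same tables hold the authors' fold changes, test statistics, p-values and q-values, which were not used. Coordinates are given from 1, and 99.5% of the 21709 symbols shared with RefSeq GRCm38.p6 lay on the same chromosome.

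Log2 ratios were computed with a pseudocount of 0.01 FPKM over genes that reached 1 FPKM in either column, and counted at 2-fold. Depth was read from low values of FPKM times transcript length, over genes with a transcript of at least 1500 bases. The most frequent of these values was taken as 1 fragment. The computations were tested on simulated data. Tools were matplotlib 3.10.9 for plots, and pandas 2.3.3 and numpy 2.4.6 under Python 3.11.15. The 10 genes and all lists were chosen with earlier results of these data known. Named besides them are Huwe1, Usp10, up to 4 lower and 4 higher pathway genes per comparison with at least 5 FPKM in 1 column, up to 3 of the most abundant genes of other lists, the 3 genes most like each enzyme with at least 10 FPKM and a 4-fold range, and markers at or near 0, which were named after their values were seen. The alternatives were pseudocounts of 0.1 and 1, minimum levels of 5 FPKM or 1 FPKM in both columns, no minimum, centring, and the other day 6 control.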

Additional observations from a re-analysis of the deposited data

Results flagged for a closer look

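Log2 ratios that passed 2-fold in opposite directions at different stages of Huwe1 knockdown are given here. None of these differences was tested, each side is 1 ratio, and the tables were normalized separately. For Alox5, the log2 ratio was -1.02 at day 0 and 2.98 at day 6, a difference of 4.0, and -4.80 at day 8, a difference of -7.77 from day 6. For Alox5ap, it was 2.88 at day 6 and -2.15 at day 8, a difference of -5.03. For Hpgd, it was -1.77 at day 0 and 1.85 at day 6, a difference of 3.62. The day 8 cultures also differed from the others in their hairpins as labelled, in the day of infection and in the label of their control. These cannot be told apart from the stage.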

How the results depend on the processing

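No paired analysis was possible because the tables hold no values per library, and single replicates could not be left out for the same reason. Of 219 recomputed log2 ratios of the enzymes that passed in a comparison (Ptges passed in none, and Hpgd not at day 8), 213 stayed on their side of the 2-fold limit. The 219 include settings that alter the minimum level alone. Those leave a ratio unchanged by construction, so the 213 overstates how stable the ratios were. Ratios near 0 could change sign, as that of Ptges3 in the day 6 knockdown did, from 0.22 to -0.03 against the other control. Against the other day 6 control, Pla2g4a reversed in the knockdown, from 2.28 to -0.83, Ptgs2 went to -2.82, and in the USP10 line Pla2g4a went to 3.12 and Ptgs2 to 2.36. At day 0 Alox5 was just short of 2-fold with centring and Hpgd to -0.88 with a pseudocount of 1 FPKM. Of 52 recomputed counts of these enzymes, 45 stayed within 1.5 times. The count of lower enzymes at day 0 went from 2 to 1 with at least 1 FPKM in both columns, with at least 5 FPKM, with centring and with a pseudocount of 1 FPKM. At day 8 it went from 2 to 1 under both of these minimum levels, and at day 6 from 1 to 2 against the other control. Of 52 counts of the other pathway genes, 33 stayed within 1.5 times. Without a minimum level, 6 were higher at day 0, 12 lower at day 6, 10 higher and 15 lower at day 8, and 7 higher and 13 lower in the USP10 line. With at least 1 FPKM in both columns or at least 5 FPKM in 1 column, 5 were higher and 4 lower at day 6, and 0 higher and 4 lower in the USP10 line, and with at least 5 FPKM 1 was lower at day 0. With a pseudocount of 1 FPKM, 1 was lower at day 0 and 3 higher at day 8. Against the other control, 5 were higher at day 6 of the knockdown and 7 in the USP10 line. The cause of these shifts was not tested. Of the 18 genes most like an enzyme, 14 were shared with a pseudocount of 1 FPKM and 12 with a minimum of 1 FPKM. Values near 0.1 FPKM, as of Ptges, rest on a few fragments and cannot be ordered at this depth.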
